A study of Mus musculus with 10 samples.

Results

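The 10 heat shock chaperones followed here in lung tumours of KP and KPG1 mice were the HSP70 genes Hspa1a, Hspa1b and Hspa8, the HSP110 gene Hsph1, the HSP40 genes Dnajb1 and Dnaja1, the HSP90 genes Hsp90aa1 and Hsp90ab1, the small heat shock protein gene Hspb1 and the HSP10 gene Hspe1. They were found by gene symbol in the count table, and all 10 were present among its 39017 genes and passed the filter on low counts. The series holds 10 libraries of polyadenylated RNA, 5 labelled Control and 5 labelled Glut1-KO. All mice were of C57BL/6 background and carried K-ras LSL-G12D/WT and p53 Fl/Fl alleles, and KPG1 mice additionally carried floxed Glut1 (gene Slc2a1). The genotype label of the controls read heterozygous fl/wt and that of the other group homozygous fl/fl, whereas the design text called the controls Glut1-WT. Tumours were initiated with Ad5CC10-Cre, an adenovirus given into the trachea that expresses Cre from a promoter of CC10-positive airway cells, and were taken after 20 weeks and 1 day. They were macrodissected, dissociated and depleted of CD45-positive immune cells on magnetic beads, so each library is the CD45-negative part of a tumour with its tumour, stromal and remaining cells.

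Heat shock proteins are chaperones that bind unfolded or partly folded proteins and keep them from aggregating. HSP70 proteins cycle between binding and release with the help of J-domain proteins (HSP40) and of exchange factors such as HSP110, HSP90 proteins mature kinases and receptors among other clients, and small heat shock proteins hold unfolded clients without using ATP. Under heat or other proteotoxic stress, heat shock factor 1 (HSF1) binds heat shock elements, inverted repeats of the letters GAA in promoters, and raises transcription of the inducible members. Hspa1a, Hspa1b, Dnajb1 and Hspb1 are known as strongly inducible, whereas Hspa8 and Hsp90ab1 are known as the constitutive forms. In tissue samples the inducible genes are also known to respond to enzymatic dissociation.

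Stretches of the promoters are shown because the members share a regulator. The element itself was not used to choose the members. They were chosen as heat shock genes, however, a class known for induction through this element, so a high share of matches is no separate result. RefSeq promoter windows on GRCm38.p6, from 250 bases before to 50 bases after the transcription start, were at hand for 7 of the 10 members, whereas Hspa8, Hsp90aa1 and Hsp90ab1 are only named. A match of 2 units was GAANNTTC or TTCNNGAA, each of which is its own reverse complement, and a match of 3 units was GAANNTTC continued by NNGAA, or TTCNNGAA continued by NNTTC, which are reverse complements of each other, so that both strands were covered and a match of 3 units contains overlapping matches of 2. Of the 7 members, 6 (85.7%) held a match of 2 units, whereas 17.0% of the 27025 genes in the promoter table did. A match of 3 units was present in 2 of 7 members (28.6%) and in 0.662% of all genes. Dnajb1 had no match in either of its 2 windows, which says only that these letters are not in these windows. Each stretch below is 60 bases long, reads 5′ to 3′ on the strand of the gene and has the matched letters in capitals. Hspa1a and Hspa1b share 1 line because these 60 bases, at chr17:34972227-34972286 and chr17:34959309-34959368 (both minus strand, from -130 to -71 relative to the start), were identical. Their whole 300-base windows differed at 4 positions, so these 2 genes are not independent cases among the 6. Hsph1 is shown at chr5:149636337-149636396 (minus, -60 to -1), Dnaja1 at chr4:40722318-40722377 (plus, -150 to -91), Hspb1 at chr5:135887786-135887845 (plus, -133 to -74) and Hspe1 at chr1:55088038-55088097 (plus, -110 to -51).
Hspa1a and Hspa1b: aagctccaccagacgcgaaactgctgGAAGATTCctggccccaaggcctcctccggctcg
Hsph1: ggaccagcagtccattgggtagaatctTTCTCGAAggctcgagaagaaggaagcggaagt
Dnaja1: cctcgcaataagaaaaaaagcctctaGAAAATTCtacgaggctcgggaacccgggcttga
Hspb1: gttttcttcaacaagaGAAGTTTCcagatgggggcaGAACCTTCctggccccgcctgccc
Hspe1: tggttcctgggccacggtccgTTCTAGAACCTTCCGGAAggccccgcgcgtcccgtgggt

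Hspe1 carried an unbroken run of alternating units that begins 89 bases before the start, Hspb1 carried 2 separate matches that begin at -117 and -97, and Hsph1 carried, besides the match printed, a match of 3 units from +37 on. The single match of Hspa1a and Hspa1b begins at -104 in both genes, and that of Dnaja1 begins at -124 in 1 of its 3 windows. A match is a description of the sequence and not a measured binding site.

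**Figure D1:**
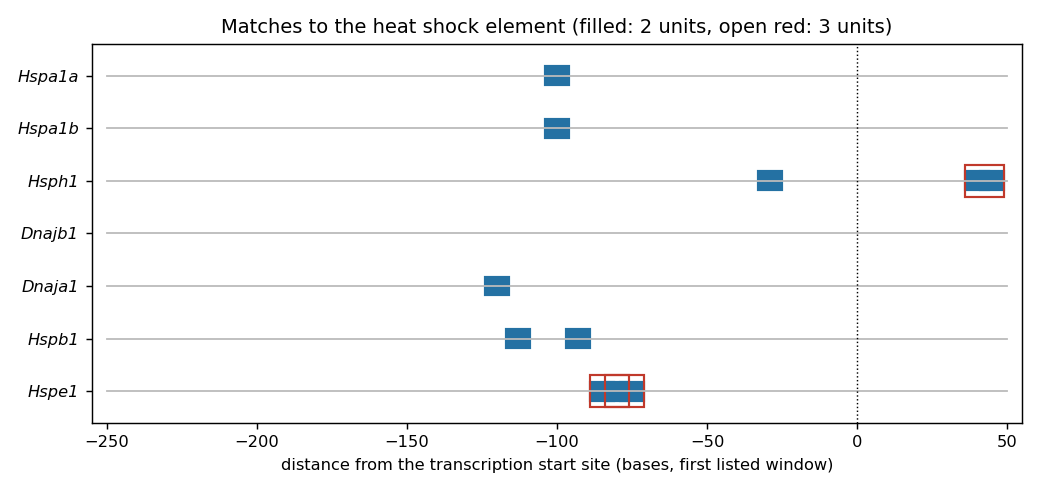
Positions of heat shock element matches (filled blocks, 2 units; open red boxes, 3 units) in the first listed promoter window of the 7 members that had one, against the distance from the transcription start in bases. Hspa1a and Hspa1b show 1 block at the same distance, Hspe1 shows overlapping blocks from -89 on, and the line of Dnajb1 is empty.

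Library totals ran from 40.1 to 49.8 M counts (M, mega) in the controls and from 35.3 to 44.6 M in the libraries labelled Glut1-KO. All 5 controls were labelled male, the replicates 1 to 3 labelled Glut1-KO female and the replicates 4 and 5 male, so genotype and sex were partly confounded. Slc2a1 was at 73.2 to 118 CPM (counts per M counts, scaled by TMM) in the controls, at 34.6, 42.5 and 60.3 CPM in the 3 female libraries labelled Glut1-KO and at 92.4 and 103 CPM in the 2 male ones, which lay within the control range. The latter 2 libraries therefore went against their label at this gene, and they share a second number in their deposited names. Control replicates 1, 2 and 5 share such a number too, as do control replicates 3 and 4, and no label says what it stands for. Epcam, the defining epithelial marker, was at 352 to 619 CPM in the controls and at 363 to 527 CPM in the other group. Values below are means ± SD, fold changes are on the log2 scale with their standard error (SE) from limma, and adjusted p-values are Benjamini-Hochberg values over all 15922 genes tested. The exact permutation test was 2-sided and ran over all 252 assignments of libraries to groups, with 0.00794 as the smallest possible p. Nothing in the labels says that libraries of a group came from separate animals, and libraries that share a name number may not be independent, so the p-values measure the spread between these libraries only.

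The chaperones made up 0.779% to 1.13% of all counts in the controls and 0.764% to 0.923% in the libraries labelled Glut1-KO. To compare levels between genes, CPM was divided by the length of the merged exons in kb. On this scale the constitutive Hsp90ab1 stood at the top of the members in the controls with 1164 CPM per kb, followed by Hspa8 with 565, Hsp90aa1 with 286, Hspa1b with 271, Hspa1a with 185, Dnajb1 with 91.2, Hspb1 with 81.4, Hspe1 with 50.4, Hsph1 with 34.7 and Dnaja1 with 23.0. By this measure only the steps from Hsp90ab1 to Hspa8 and from Hspe1 to Hsph1 had control ranges that did not overlap. Hsp90aa1 exceeded Hspa1b in only 2 of 5 controls and Dnajb1 exceeded Hspb1 in 3 of 5, so these neighbours could not be ordered beyond their spread. Over all libraries Hsp90ab1 ranked 12th and Hspa8 42nd of 15761 genes with a length, Hspa1b and Hspa1a ranked 125th and 215th, and Dnaja1 ranked 2623rd. Merged exons exceeded the longest coding transcript for Hspa8 (4301 against 2394 bases), Hspe1 (1474 against 774) and Hsph1 (7266 against 3802). For Hspa1a both were 2967 bases. The order, the overlap of ranges and the ranks therefore depend on the length used, and other lengths were not tried. They also depend on how reads shared with other genes were counted.

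The comparison of the groups asks how tumours that grew after Glut1 deletion differ in expression from KP tumours. None of the 10 chaperones differed between the groups at an adjusted p of 0.05 with limma, and none did with edgeR or DESeq2. The background was 0% of all genes for limma and edgeR and 1.35% for DESeq2 (0.659% lower, 0.691% higher). In 9 of the 10 the log2 fold change was below 0 and in 1, Hspe1, it was above 0, whereas 50.7% of all genes were below 0. The median over the members was -0.21 on the log2 scale, and over all genes tested it was -0.0049. At an unadjusted p under 0.05 stood 1 member, Hsph1, which was lower (background 4.02% of all genes in that direction, 7.68% in either). This count was 0 without control replicate 5 or Glut1-KO replicate 3 and 3 without control replicate 2. It was 2 with library quality weights (Hsph1 and Hspa1a) and 2 for the labelled females against the male controls (Hsph1 and Hspa8). Among the male libraries the 1 such member was Hspe1 (limma unadjusted p = 0.0217), and with sex as a covariate it was again Hspe1 (0.0109) and not Hsph1 (0.773). Without control replicate 1 or Glut1-KO replicates 1 or 2, in turn, it was Hspe1 as well (0.0449 to 0.0483), and Hsph1 stood at 0.0562 to 0.0620. Over all genes such counts were 1223 of 15922 in the main fit, 1754 of 15922 with quality weights and 2260 of 16430 for the labelled females. They were 1556 of 16762 among males, 1761 of 15922 with sex as a covariate and 1436 of 16101 without control replicate 2. In the other settings named they ran from 896 of 16121 (without Glut1-KO replicate 3) to 1182 of 16130 (without control replicate 5). The control and the labelled libraries overlapped at every member (background 1.84% without overlap). In bulk tissue, fewer cells that express a gene and less RNA per cell cannot be told apart.

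**Figure D2:**
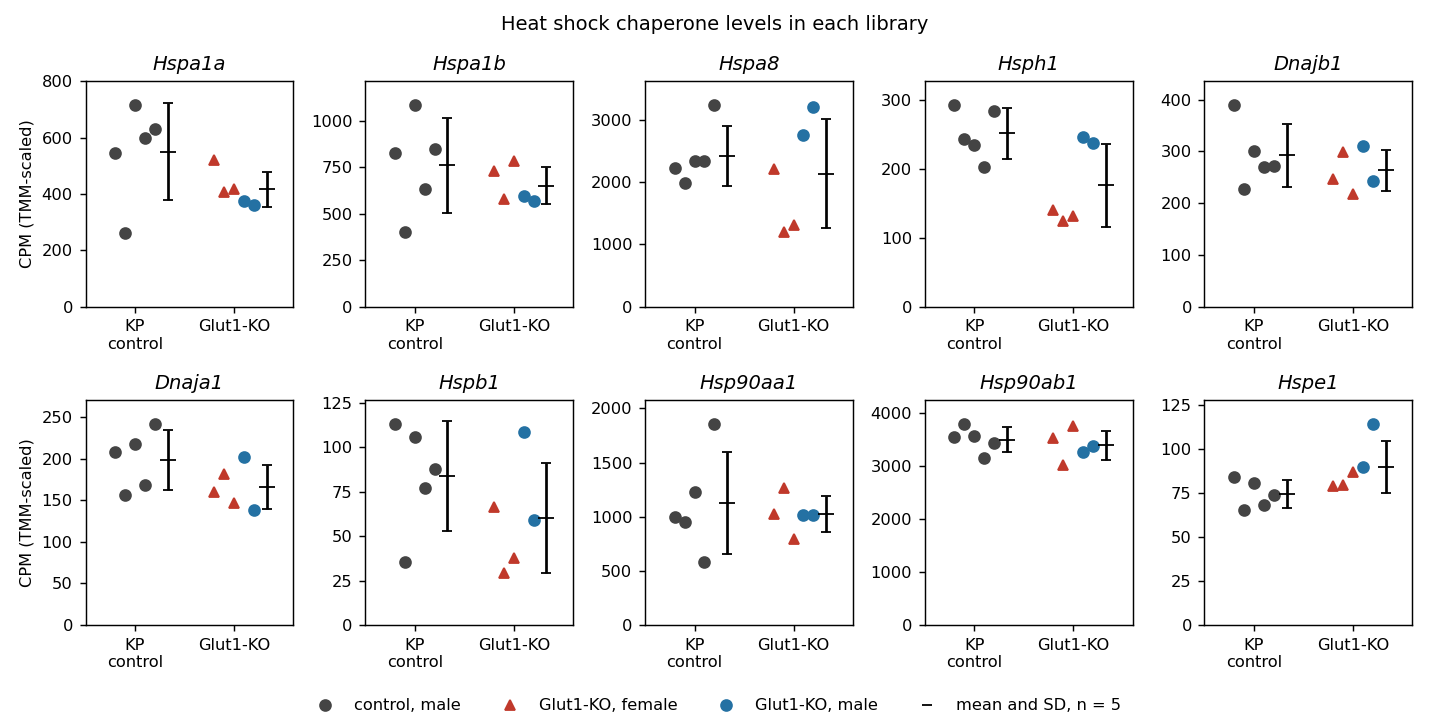
TMM-scaled CPM of each chaperone in each library (vertical axes start at 0), with the mean and SD of each group (n = 5) beside the points. Controls are male, and the libraries labelled Glut1-KO are drawn as red triangles (female) and blue circles (male). The 3 female libraries of Hsph1 sit between 125 and 141 CPM, under every control, while the 2 male ones sit among the controls.

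Of the HSP70 proteins, Hspa1a (ENSMUSG00000091971, chr17:34969190-34972156, minus, GRCm38) and Hspa1b (ENSMUSG00000090877, chr17:34956436-34959238, minus) encode nearly the same inducible protein from neighbouring genes. Hspa1a was at 545, 260.4, 715, 599 and 629.5 CPM in control replicates 1 to 5 and at 521, 407, 416, 375 and 361 CPM in the replicates labelled Glut1-KO. Control replicate 2 held the lowest value of all libraries and the other 4 controls the highest, so the groups overlapped through that library. The means were 549.7 ± 173 and 416 ± 63.0 CPM (SD, n = 5 per group), and the log2 fold change was -0.35 (SE 0.24, limma adjusted p = 0.766, exact permutation p = 0.246). Without control replicate 2 the log2 fold change was -0.59 and the exact permutation p was 0.0159, with an adjusted p still above the threshold under each alternative (0.357 to 0.935).

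Hspa1b was at 827, 402, 1083, 633 and 849 CPM in the controls and at 727, 577, 782, 597 and 567 CPM in the labelled libraries. Again control replicate 2 lay under all other libraries, and the values of the labelled libraries lay inside the control range. The log2 fold change was -0.17 (SE 0.23, limma adjusted p = 0.883), and it was -0.37 without control replicate 2 and -0.02 without control replicate 3. The summed level of the pair was 1309 ± 417 CPM in the controls and 1066 ± 146 CPM in the labelled libraries (SD, n = 5 each, exact permutation p = 0.397), and Hspa1a contributed 42.0 ± 3.92% and 39.1 ± 2.81% of it (exact permutation p = 0.254). Of the 85-base windows of the Hspa1a transcript, 50.4% occur identically in Hspa1b, so with 85-base reads the split between both genes is uncertain. With other annotated genes included, 59.8% of its windows are shared, and the sum is uncertain as well because the handling of such reads was not given.

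Hspa8 (ENSMUSG00000015656, chr9:40800984-40810087, plus), the constitutive cytosolic HSP70 that also strips clathrin from vesicles, was at 2231, 1984, 2342, 2339 and 3245 CPM in the controls. In the labelled libraries it was at 2209, 1208 and 1311 CPM in the 3 females and at 2765 and 3208 CPM in the 2 males. The female replicates 2 and 3 lay under all controls, and the males lay above 4 of the 5. Over all libraries the log2 fold change was -0.27 (SE 0.28, limma adjusted p = 0.843, exact permutation p = 0.389), and it ranged from -0.09 without Glut1-KO replicate 2 to -0.42 without Glut1-KO replicate 5. For the labelled females against the male controls it was -0.65 (SE 0.23, adjusted p = 0.282), a contrast that mixes sex with genotype, and for the labelled males against the same controls 0.31 (SE 0.20, adjusted p = 0.669). The direction for Hspa8 therefore differed between the labelled females and males, although neither contrast passed the threshold. These libraries also differ in Slc2a1 level and name number. Hspa8 shares 66.3% of its 85-base windows with other annotated genes, most of them with the processed copy Gm15459, and the gene hosts small nucleolar RNAs.

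The exchange factor of the HSP70 cycle, Hsph1 (HSP110, ENSMUSG00000029657, chr5:149614287-149636376, minus), had the smallest limma p of the members, although by the exact permutation test the p of Hspe1 was smaller. Its levels were 293, 244, 236, 203 and 285 CPM in the controls, 141, 125 and 131 CPM in the 3 labelled females and 247 and 237 CPM in the 2 labelled males. All 3 females lay under the lowest control, and both males lay inside the control range. Over all libraries the means were 252 ± 37.1 and 176 ± 60.5 CPM (SD, n = 5 per group), and the log2 fold change was -0.57 (SE 0.22, limma adjusted p = 0.592, exact permutation p = 0.0794). This placed Hsph1 648th of 15922 genes by p. With sex as a covariate the log2 fold change was -0.05 (limma adjusted p = 0.939).

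Against the 5 controls the female libraries differed at Hsph1 by -0.91 (SE 0.14, limma adjusted p = 0.0853), where 5 genes (0.0304% of those tested) were called lower and 4 (0.0243%) higher. The exact permutation p was 0.0179, the smallest that 3 against 5 libraries allow. The male libraries differed by -0.05 (SE 0.16, adjusted p = 0.947), where 1 gene (0.00597%) was called higher and 0 lower. Between the 3 females and the 2 males labelled Glut1-KO the values did not overlap, with an exact permutation p of 0.1 that is the smallest this design allows. The labelled females and males did not overlap at Hspa8, Hspe1 (females lower in both) and Hspa1a (females higher) either. Only 10 assignments of these libraries to 3 and 2 exist, so many genes can separate without any difference. The share of all genes without overlap in this split was not computed, so these members cannot be set against a background. Sex, the level of Slc2a1 and the name number separate the same libraries, so their parts in Hsph1, Hspa8, Hspe1 and Hspa1a cannot be told apart. No 85-base window of Hsph1 occurs in another annotated gene.

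The J-domain proteins deliver clients to HSP70 and start its ATPase. Dnajb1 (HSP40, ENSMUSG00000005483, chr8:83608193-83612653, plus) was at 389, 228, 301, 270.3 and 272 CPM in the controls and at 248, 299, 218, 311 and 243 CPM in the labelled libraries. These values were mixed between the groups, and the log2 fold change was -0.14 (SE 0.16, limma adjusted p = 0.856), or -0.03 without control replicate 1. Dnaja1 (ENSMUSG00000028410, chr4:40722150-40737149, plus) was at 208, 156, 218, 168 and 242 CPM in the controls and at 160.4, 182, 146, 203 and 138 CPM in the labelled libraries. Its log2 fold change was -0.26 (SE 0.15, limma adjusted p = 0.730), with overlapping groups and a value below 0 also for the labelled females (-0.27) and the labelled males (-0.23), each against the male controls. Of the 85-base windows of Dnaja1 25.3% occur in other annotated genes, and those of Dnajb1 in none. Exons of Dnaja1 overlap those of Smu1 and Gm6297 on the opposite strand. The setting for strand in the counting was not given in the sources used here.

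The HSP90 genes differed in their spread between libraries. Hsp90ab1 (ENSMUSG00000023944, chr17:45567775-45573271, minus), the constitutive cytosolic form, was at 3536, 3790.4, 3555, 3146 and 3427 CPM in the controls and at 3525, 3007, 3743, 3262 and 3379 CPM in the labelled libraries. This was the narrowest spread of the members, with a coefficient of variation of 6.70% in the controls and 8.17% in the labelled libraries. The log2 fold change was -0.05 (SE 0.11, limma adjusted p = 0.941), with a 95% interval from -0.30 to 0.21.

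Hsp90aa1 (ENSMUSG00000021270, chr12:110690605-110702728, minus), the inducible form, was at 999, 955, 1229, 579.9 and 1859.5 CPM in the controls and at 1022, 1266, 793, 1018 and 1017 CPM in the labelled libraries. Control replicates 4 and 5 held the lowest and the highest value of all 10 libraries. Its coefficient of variation was 42.0% in the controls and 16.4% in the labelled libraries. The log2 fold change was -0.05 (SE 0.27, limma adjusted p = 0.979), and it was 0.16 without control replicate 5. The ratio of Hsp90aa1 to Hsp90ab1, both in CPM per kb, was 0.245 ± 0.104 in the controls and 0.234 ± 0.0571 in the labelled libraries (SD, n = 5 each). Of the 85-base windows of Hsp90aa1 51.1% occur in other annotated genes, mostly in Gm12346, and of those of Hsp90ab1 0%, so the level of Hsp90aa1, its place in the order of levels and this ratio depend on how reads with several matches were counted.

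Hspb1 (HSP27, called HSP25 in mice, ENSMUSG00000004951, chr5:135887919-135889563, plus), a small heat shock protein that also binds actin, was at 113, 35.3, 106, 77.1 and 87.8 CPM in the controls. In the labelled libraries it was at 66.5, 29.1 and 37.7 CPM in the females and at 109 and 58.9 CPM in the males. Control replicate 2 lay with the low females, and the spread within each group was wide (83.9 ± 30.8 and 60.2 ± 31.1 CPM, SD, n = 5 each). The log2 fold change was -0.53 (SE 0.39, limma adjusted p = 0.773). Leaving out a library moved it between -0.82 (without control replicate 2) and -0.30 (without Glut1-KO replicate 2). It was -0.89 (SE 0.41, adjusted p = 0.382) for the labelled females and 0.04 (SE 0.47, adjusted p = 0.985) for the labelled males, each against the male controls, so the value for the males had the other sign. Of its 85-base windows 45.5% occur in the pseudogene Hsp25-ps1.

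Hspe1 (HSP10, ENSMUSG00000073676, chr1:55088132-55091307, plus), the lid of the mitochondrial HSP60 chamber, was the only member with a higher mean in the labelled libraries. It was at 84.2, 65.2, 80.7, 68.0 and 73.5 CPM in the controls and at 78.7, 79.2, 86.6, 89.5 and 114 CPM in the labelled libraries. Female replicate 3 and both males lay above all controls, and the remaining females lay within the control range. The means were 74.3 ± 8.11 and 89.7 ± 14.5 CPM (SD, n = 5 per group), and the log2 fold change was 0.27 (SE 0.13, limma adjusted p = 0.676, exact permutation p = 0.0476). Leaving out a single library moved the exact permutation p between 0.0397 and 0.111, above 0.05 in 7 of 10 cases. With sex as a covariate the log2 fold change was 0.46 (adjusted p = 0.351). Against the male controls it was 0.15 (SE 0.12, adjusted p = 0.598) for the labelled females. For the labelled males it was 0.45 (SE 0.16, adjusted p = 0.480). Of the 85-base windows of Hspe1 26.2% occur in other annotated genes, mostly in AC117239.2. Hspd1, the HSP60 gene that starts from the same region in the other direction and whose exons overlap those of Hspe1, was at 307 to 405.5 CPM in the controls and at 257 to 511 CPM in the labelled libraries, with a log2 fold change of 0.02 (chosen here as the partner of Hspe1 and not by a rule).

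**Figure D3:**
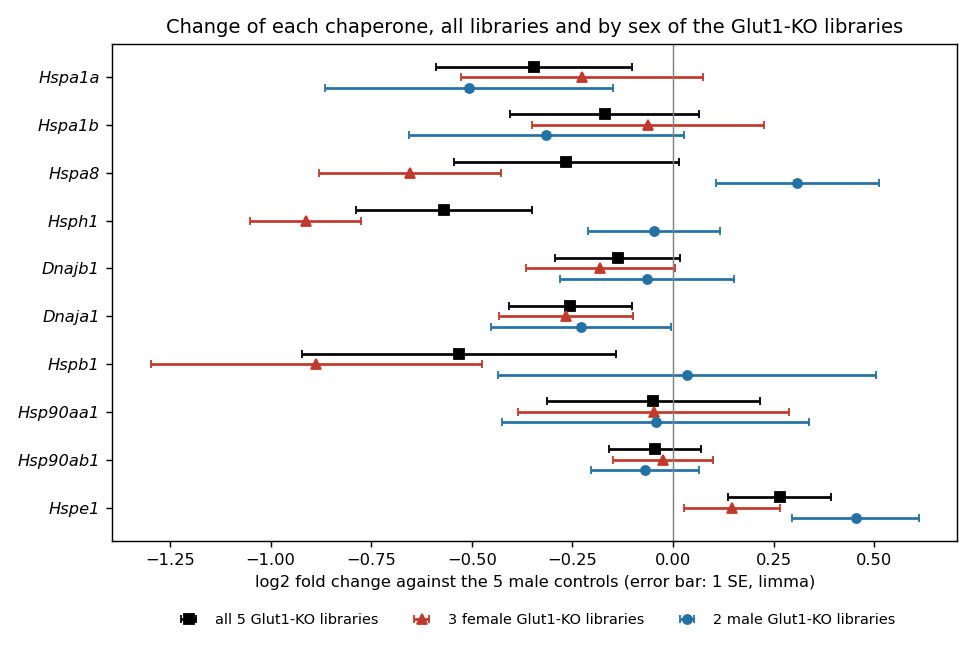
Log2 fold change of each chaperone against the 5 male controls (horizontal axis, limma, bars of 1 SE) for all 5 libraries labelled Glut1-KO (black), the 3 female (red) and the 2 male ones (blue). The red and blue points of Hsph1 lie at -0.91 and -0.05, those of Hspa8 at -0.65 and 0.31, and those of Dnaja1 next to each other at -0.27 and -0.23.

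Across the 10 libraries the chaperones did not move as a single group. Over the 45 pairs the median Pearson r of log2 CPM was 0.218, and 8 pairs were negative, down to -0.37 for Dnajb1 and Hsp90ab1. In 3 pairs r exceeded 0.7. Hspa1a and Hspa1b had r = 0.879 (Spearman's rho 0.903), which was 0.886 with the group means removed and 0.660 without the 2 libraries farthest from the median of Hspa1a, and the 2 genes share part of their sequence. Hspa8 had r = 0.780 with Hsph1 (rho 0.636), which was 0.809 with the group means removed. It dropped to 0.332 without the 2 libraries farthest from the median of Hspa8. With Hspb1, Hspa8 had r = 0.717 (rho 0.612), which was 0.685 with the group means removed and 0.271 without those libraries. The size of both values depends on those libraries, but leaving them out also narrows the range of Hspa8, which by itself tends to lower r. All values share libraries and depth and are given as descriptions.

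With the mean of the other members, Hspb1 had the highest r (0.827) and Dnaja1 the next (0.682), whereas Hspe1 (0.024) and Hsp90ab1 (-0.088) were near 0. The genes outside the list whose log2 CPM was most like the mean of the members over the 10 libraries were Camta1 (r = 0.887, rho 0.939), Hras (r = 0.883, rho 0.927), Cetn2 (r = 0.880, rho 0.903), Srp14 (r = 0.879, rho 0.891) and Tmem65 (r = 0.872, rho 0.879). They are the top of all genes tested by r, a rank that some genes must hold. None of the 5 differed between the groups (limma adjusted p from 0.688 for Camta1 to 0.938 for Srp14).

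**Figure D4:**
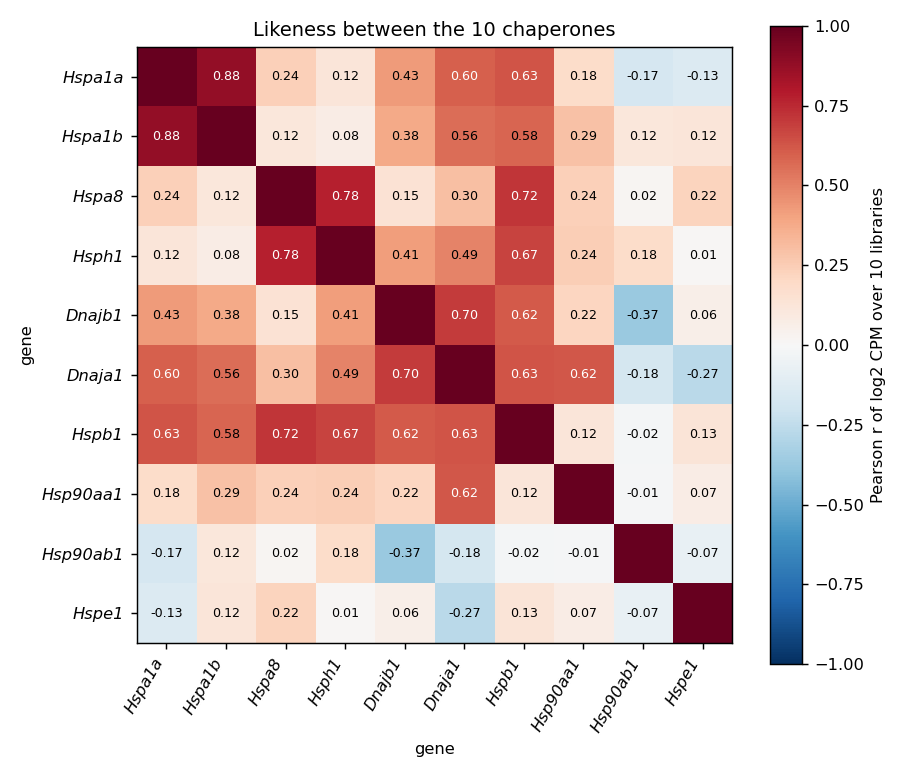
Pearson r of log2 CPM over the 10 libraries for each pair of chaperones, on a colour scale from blue (negative) to red (positive). Hspa1a with Hspa1b is the darkest pair, the pairs of Hspa8, Hsph1 and Hspb1 with one another are red, and the rows of Hsp90ab1 and Hspe1 are pale.

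The rest of the chaperone network was counted in further gene lists, and 0 genes were called in any of them with limma. Some genes stand in more than 1 list, so the counts of the lists are not independent. Dnaja4 and Hspb8, both at an unadjusted limma p under 0.05, count among the HSF1 targets and again in their own families. Of the heat shock factors and their binding protein 4 of 5 were tested, and Hsf1, the main activator of the members, was at 45.1 ± 4.56 CPM in the controls and 40.6 ± 5.63 CPM in the labelled libraries (SD, n = 5 each, log2 fold change -0.16, limma adjusted p = 0.784). Hsf2 had -0.45 (adjusted p = 0.667). Of 19 further heat-inducible targets of HSF1, 14 were lower and 5 higher, with a median of -0.21, and 5 of the lower ones stood at an unadjusted p under 0.05 (background 4.02% of all genes in that direction). Their summed level was 3379 to 3785 CPM in the controls, 2723 to 3211 CPM in the labelled females, under every control, and 3773 and 3914 CPM in the labelled males, at the upper end of the controls or above it. At 3 of the 19 the labelled libraries lay below all controls (background 1.06% of all genes in that direction). Zfand2a, a proteasome-associated zinc finger gene, was at 86.1 ± 12.3 CPM against 57.5 ± 8.20 CPM (SD, n = 5 each, log2 fold change -0.59, SE 0.13, limma adjusted p = 0.351). Ier5, an immediate-early gene that is also under HSF1, was at 89.1 ± 6.16 CPM against 69.9 ± 6.98 CPM (-0.35, SE 0.10, adjusted p = 0.437).

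Among the 11 other HSP70 and HSP110 genes, 6 were lower and 5 higher (median -0.19), with Hspa12a at 1.09 (limma adjusted p = 0.531) and Hspa2 at -0.60 (adjusted p = 0.627) standing at an unadjusted p under 0.05 (background 7.68% of all genes in either direction). Of 13 other J-domain genes of the A and B families, 10 were lower and 3 higher (median -0.12), with Dnajb4 at -0.66 (adjusted p = 0.621) and Dnaja4 at -1.16 (adjusted p = 0.644) as those with the smallest p in that direction. Of 5 other small heat shock protein genes tested 3 were lower and 2 higher (median -0.07), and Hspb8 had the lowest value, from 85.1 ± 35.04 to 46.2 ± 25.8 CPM (SD, n = 5 each, log2 fold change -1.01, SE 0.45, adjusted p = 0.644).

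The partners of HSP90 and HSP70 and the chaperones of other compartments held genes on both sides of 0. Of 17 HSP90 co-chaperones 8 were higher and 9 lower (median -0.01), and their summed level was 1829 to 2061 CPM in the controls, 1514 to 1728 CPM in the labelled females and 2386 and 2417 CPM in the labelled males. By this sum the females lay under and the males above all controls. The sum weighs abundant genes such as Fkbp4 (604 ± 95.8 CPM in the controls, SD, n = 5) most. The median of this list was not split by sex. In this list Fkbp5, a co-chaperone of the glucocorticoid receptor, was at 17.7 ± 2.66 against 28.9 ± 8.15 CPM (SD, n = 5 each, log2 fold change 0.66, SE 0.20, limma adjusted p = 0.454). Of 9 exchange factors and quality control partners 6 were higher (median 0.07), and Bag3, which links HSP70 to autophagy, had -0.21. Of 12 mitochondrial chaperones and proteases 7 were higher (median 0.03), and Dnajc19 of the import motor lay above all controls in each labelled library (0.38, adjusted p = 0.602, background 0.785% of all genes without overlap in that direction). The 13 genes tested of the cytosolic chaperonin TRiC and of prefoldin had a median of 0.01 and the 15 endoplasmic reticulum chaperones one of -0.08, with Hspa5 (BiP) at -0.25 (adjusted p = 0.745).

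**Figure D5:**
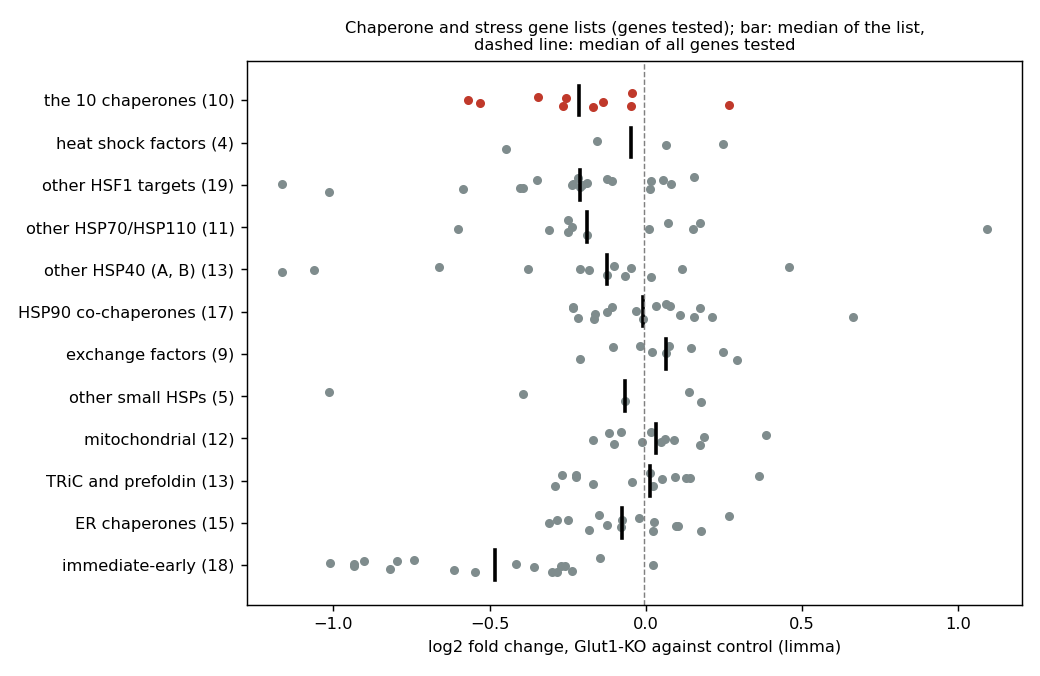
Log2 fold change (limma, labelled Glut1-KO against control) of every gene tested in the 10 chaperones (red) and in 11 further lists (grey, number tested in brackets). Black bars mark list medians and the dashed line the median of all genes, with the members at -0.21 and the immediate-early genes at -0.48.

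Immediate-early genes also respond to tissue dissociation. Of 18 such genes 17 were lower in the labelled libraries and 1 higher (median -0.48), 10 of them lower at an unadjusted p under 0.05 (background 4.02% of all genes in that direction) and 6 without overlap (background 1.06%), although none was called. Cyr61 was at 207 ± 49.1 CPM in the controls and 100.1 ± 7.32 CPM in the labelled libraries (SD, n = 5 each, log2 fold change -1.01, SE 0.16, limma adjusted p = 0.230). Their summed level was 6706 to 7826 CPM in the controls, 5612 to 6355 CPM in the labelled females and 3856 and 4300.3 CPM in the labelled males. The males had the lowest sums. Compared with the labelled females, they had higher levels of Hspa8, Hsph1 and Hspe1 without overlap, a trait whose share over all genes was not computed. At Hspa1a they were lower without overlap, at 361 and 375 CPM against 407 to 521 CPM in the females. At the other members the labelled females and males overlapped. The part of the immediate-early difference in the chaperone levels was not tested.

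Markers of the cell types that the tumour fraction could hold were counted as well. Of 14 epithelial and adenocarcinoma markers 8 were higher and 6 lower, with summed levels of 25012 to 62684 CPM in the controls and 44222 to 60158 CPM in the labelled libraries. All 9 ciliated cell markers tested were lower (median -1.13, sums of 13.05 to 271 against 18.3 to 60.2 CPM) and 7 of 9 club cell markers were lower (median -0.45, sums of 2309 to 11855 against 3044 to 9147 CPM). All 12 endothelial markers were higher (median 0.58, sums of 154 to 541 against 256 to 707 CPM), and of 13 leukocyte markers tested 10 were higher (median 0.59, sums of 995 to 11357 against 1983 to 7926 CPM, which Lyz2, a gene that alveolar type 2 cells also express, dominates). Of the leukocyte markers 6 were higher at an unadjusted p under 0.05 (background 3.66% of all genes in that direction) and 5 lay above all controls (background 0.785%). Ptprc, the gene of the depleted CD45, was at 2.30 to 3.26 CPM in the controls and at 5.05 to 10.1 CPM in the labelled libraries. The alveolar type 1 (8 genes, median 0.11), fibroblast (10 genes, -0.20), erythroid (5 genes tested, -0.55) and proliferation lists (12 genes, -0.18) held 0 genes at an unadjusted p under 0.05, and none of these marker lists held a called gene. Control replicate 2, the lowest library at Hspa1a and Hspa1b, had the lowest epithelial sum, which the surfactant genes Sftpc and Sftpb dominate, but the highest Epcam level (619 CPM), and it had the highest proliferation sum (644 CPM). The part of cell makeup in the chaperone levels was not tested.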

How the data were processed

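The authors sequenced stranded mRNA libraries as 85-base single-end reads. Per the submitters' processing notes, bcl2fastq 2.17, cutadapt 1.4.2, HISAT2, featureCounts 1.4.4 and edgeR were used with build mm10, and the handling of strand and of reads with several matches was not given in the sources used here. The deposited files hold raw read counts per gene, without normalization. A deposited table of log2 values made from these counts by the authors was not used for results.

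Counts were filtered (edgeR 4.0.16 filterByExpr, minimum count 10, minimum total 15), TMM-scaled and passed through voom (prior count 0.5) to a linear model in limma 3.58.1 (R 4.3.3) whose only term was the group. The study used the same scaling and model family but removed low genes by their mean TPM. Benjamini-Hochberg adjustment ran over all 15922 genes at a threshold of 0.05. Exact permutation tests used log2 CPM. Alternatives were DESeq2 1.42.0, edgeR, other scalings, sex as a covariate, subsets by sex, blocks and leaving out each library. Positions and lengths came from GENCODE M21 (GRCm38), promoters from RefSeq. From each chaperone or stress list at most 2 genes per direction with the smallest p were to be named, plus the 5 genes most like the members. The members and lists were chosen with earlier results of these data known. For 1 gene of the lists, values are not reported here.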

Additional observations from a re-analysis of the deposited data

Results flagged for a closer look

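The control value of Hspa8 in replicate 5, 3245 CPM, stood apart from the other controls, which lay between 1984 and 2342 CPM. The gap made up 0.716 of the range of the group, against a critical value of 0.71 for 5 values. Of 30 groups of values examined, chance alone gives about 1.5 such cases. The same library also held the highest control value of Hsp90aa1, 1859.5 CPM.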

How the results depend on the processing

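No alternative called any of the 10 chaperones (0 in each of 21 settings). Over all genes the count of 0 became 215 with DESeq2, 3 with sex as a covariate, 1 among male libraries only, 9 with only the female libraries labelled Glut1-KO, and 0 to 1 when a library was left out (1 without control replicate 3); the cause was not tested. With library quality weights the log2 fold change of Hsp90aa1 turned to 0.14 and that of Hsp90ab1 to 0.0077. With sex as a covariate and among males only, Hspa8 turned to 0.31 in both and Hspb1 to 0.036 and 0.035. Leaving out a library moved Hsp90aa1 between -0.27 and 0.16 and its exact permutation p between 0.325 and 0.96. For Hsph1 the exact permutation p ran from 0.0238 (without Glut1-KO replicate 4) to 0.127 and was 0.0476 both without Glut1-KO replicate 5 and with scaling to library totals. With sex as a covariate Hsph1 moved from -0.57 to -0.05. Hspa1a, Hspa1b, Hsph1, Dnajb1, Dnaja1 and Hspe1 kept their sign in all 21 settings, though not their size. Replicate numbers did not pair the samples (correlation of same-numbered deviations from -0.13 to 0.20, and 1 of 5 controls matched its own number best), and a fit with the replicate block called 0 genes, 0 of them chaperones. Treating libraries with a shared name number as a random block (estimated correlation 0.0703) called 0 chaperones as well. Each library held 35.3 M counts or more, and the lowest level of a chaperone in any library was 29.1 CPM (Hspb1). Genes encoded by mitochondria had 0 counts throughout and were not analysed here.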
